A study of Mus musculus with 2 samples.

Results

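*Neat1* gave its name to 3 of the 2763 *Meg3* ChIRP-seq peaks of mouse embryonic fibroblasts (MEFs), 1 of 1554 in the β-actin knockout (KO) list and 2 of 1209 in the wild-type (WT) list. These 3 peaks are all the rows of both lists whose nearest gene is given as *Neat1*, and the gene was chosen by its peaks in both lists, so its counts and positions are described here and not tested. *Neat1* was 1 of 288 genes named in both lists among 1558 named in either, which is 18.5%. MEFs are connective tissue cells cultured from mouse embryos. The WT cells carry β-actin, and the KO cells come from an embryonic lethal knockout of the β-actin gene, in which the study describes a cytoskeleton kept up by α-smooth muscle actin. Neither the labels nor the methods say how many embryos or lines stand behind each list. Both groups were grown in the same medium and crosslinked with 1% glutaraldehyde for 10 min. In ChIRP, biotinylated DNA probes that are complementary to an RNA draw that RNA and the chromatin crosslinked to it out of a lysate, and the DNA is sequenced.

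*Neat1* is a long non-coding RNA (lncRNA) that stays in the nucleus and is transcribed next to *Malat1*, another abundant nuclear lncRNA. It is made in a short and a long isoform from the same start site. The long isoform is the scaffold of paraspeckles, nuclear bodies in which RNA-binding proteins such as NONO and SFPQ gather and in which certain RNAs and proteins are retained. *Meg3*, the RNA that was pulled down, is an imprinted lncRNA that is also found on chromatin.

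The DNA under the WT peak inside *Neat1* and under the KO peak next to it is shown because these are the peaks closest to the gene in each genotype. The third peak lies in a 3′ untranslated region (UTR), and its sequence is not printed. Both sequences are from GRCm38 (mm10), plus strand, 5′ to 3′, whereas *Neat1* is transcribed from the minus strand. Capitals mark the longest exact match to any of the 16 *Meg3* probes on either strand.
WT peak in the *Neat1* exon, chr19:5833370-5833563: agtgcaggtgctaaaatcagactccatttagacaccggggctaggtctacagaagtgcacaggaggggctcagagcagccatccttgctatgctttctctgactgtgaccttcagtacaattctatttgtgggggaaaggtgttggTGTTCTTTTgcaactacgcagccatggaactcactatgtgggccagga
KO peak upstream of *Neat1*, chr19:5848125-5848292: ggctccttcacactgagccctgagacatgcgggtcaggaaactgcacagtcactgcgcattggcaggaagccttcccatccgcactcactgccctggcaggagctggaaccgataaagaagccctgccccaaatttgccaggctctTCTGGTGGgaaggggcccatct
Both matches were to 1 probe, Meg3-16, and to different stretches of it. Below, the probe is written first with the bases found in the WT peak in capitals, and then with those found, as their reverse complement, in the KO peak.
Meg3-16 and the WT exon peak: aTGTTCTTTTaccaccagat
Meg3-16 and the KO peak: atgttcttttaCCACCAGAt

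The matches were 9 of the probe's 20 bases in the WT exon peak and 8 in the KO peak, and the WT peak in the 3′ UTR matched probe Meg3-5 over 7 bases. The median peak of each list matched a probe over 8 bases, and the longest match was 12 bases in KO and 13 in WT. In the WT list 71.4% of peaks had a shorter match than the WT exon peak, and in the KO list 21.6% had a shorter match than the KO peak. Only 1.49% of WT peaks had a shorter match than the 3′ UTR peak. The probe matches of the *Neat1* peaks thus lay within the range of their lists, and none was near the length of a probe. The longest match to annotated *Meg3* RNA on either strand was 13, 12 and 13 bases in the exon, KO and 3′ UTR peak, against a median of 12 bases in each list. The longest run of purines on either strand, a feature of sequences that can form RNA-DNA triplexes, was 10, 9 and 9 bases against a median of 10 in each list.

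By position, the 3 peaks followed each other as WT, KO and WT over 18530 bp of chromosome 19. RefSeq (GRCm38.p6) places *Neat1* at chr19:5824708-5845480 on the minus strand, with a long isoform of 20771 bases (NR_131212) and a short one of 3185 bases (NR_003513). The WT peak at chr19:5833370-5833563 was 194 bp wide and was the only 1 of the 3 inside the gene. The annotation of the lists classes it as non-coding, in exon 1 of 1 of NR_131212, with its centre 12012 bp downstream of the transcription start site (TSS). It covered bases 11916 to 12109 of the long isoform, 57.8% of the way along, and lay 8732 bp beyond the end of the short isoform. The stretch under it thus belongs to the long, paraspeckle-forming isoform and not to the short one. No KO peak overlapped the gene by even 1 bp, and neither list had a peak in the short isoform.

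The KO peak at chr19:5848125-5848292 was 168 bp wide and classed as intergenic. Its centre was 2728 bp upstream of the TSS of NR_003513, and 2644 bp separated it from the gene. It lay in the stretch of 5493 bp between the start of *Neat1* and the 3′ end of *Frmd8*, a gene for a FERM domain protein transcribed from the same strand as *Neat1*, and was 2681 bp from the RefSeq end of *Frmd8*. GENCODE M21 places a gene of its antisense class in this stretch, *Frmd8os*, at chr19:5845623-5851388 on the plus strand. *Frmd8os* starts 145 bp from the GENCODE start of *Neat1* and runs the other way. The KO peak fell in an intron of the *Frmd8os*-202 transcript, overlapped none of its exons, and ended 215 bp before the start of *Frmd8os*-201. *Frmd8os* is not among the RefSeq gene symbols used here, and the lists name no peak for it.

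The WT peak at chr19:5851689-5851899 was 211 bp wide and lay in the 3′ UTR of *Frmd8* (NM_026169, exon 11 of 11). It was named for *Neat1* since the *Neat1* TSS was 6314 bp away and that of *Frmd8* 23475 bp away. It was 6208 bp from the *Neat1* gene, 715 bp from the RefSeq 3′ end of *Frmd8* and 300 bp past the end of *Frmd8os*. Named by what it covers, it is a *Frmd8* peak, and no peak of either list is named for *Frmd8*. With GENCODE M21 start sites in place of those of the lists, the nearest TSS of the KO peak was *Frmd8os* at 300 bp against 2730 bp for *Neat1*, and that of the 3′ UTR peak was *Frmd8os* at 3286 bp against 6316 bp. Under that annotation the WT exon peak was the only 1 of the 3 named for *Neat1*, at 5454 bp from a GENCODE start.

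**Figure D1:**
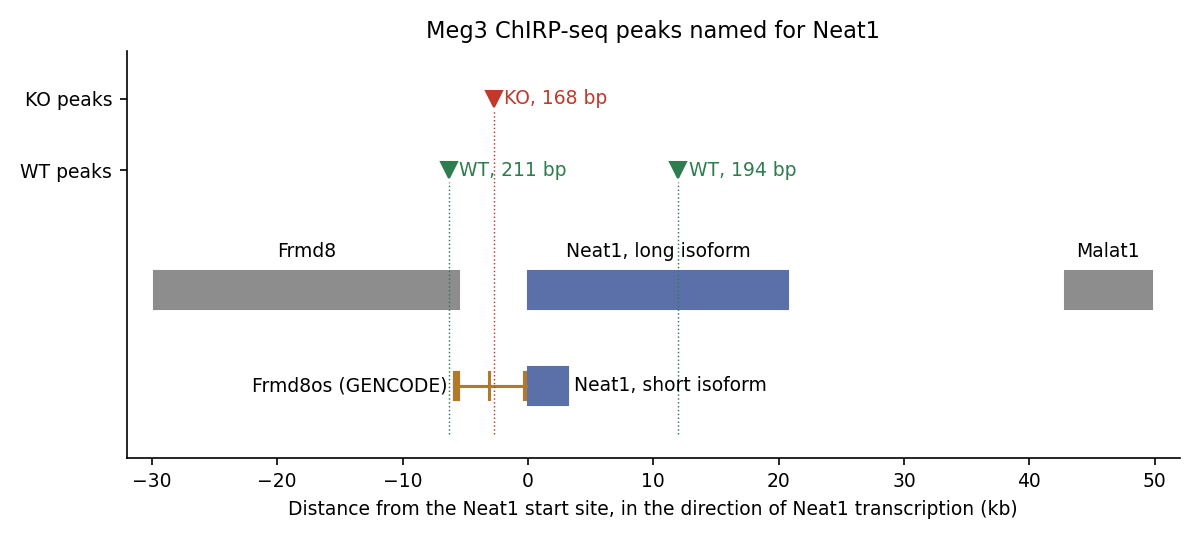
The 3 peaks named for *Neat1*, as triangles at their centres, against the gene models, in kb from the *Neat1* start site in the direction of *Neat1* transcription; boxes are genes or isoforms from RefSeq, and *Frmd8os* is drawn from GENCODE with its exons as boxes. The WT peak 12012 bp downstream is in the long isoform, the KO peak lies 2728 bp upstream within *Frmd8os*, and the WT peak 6314 bp upstream is in the end of *Frmd8*.

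The KO peak was closer to the WT peak in *Frmd8* than to the WT peak in *Neat1*. The gap was 3396 bp to the first, or 3586 bp between centres, and 14561 bp to the second. The 2 WT peaks were 18125 bp apart. The nearest other KO peak, named for *Pola2*, was 105233 bp away. Beyond the 3 peaks, the next peak on the side of lower coordinates was a KO peak of *Ltbp3* at 91319 bp, and that on the other side a WT peak of *Cdc42ep2* at 80926 bp. The methods class peaks as unique to a genotype or shared, and the KO and WT lists hold no overlapping peaks, so a position with a peak in both genotypes cannot be seen in them.

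Among the 288 genes named in both lists, the smallest gap between a KO and a WT peak had a median of 1846 bp, with quartiles of 517.5 and 8376.75 bp. For 185 of them (64.2%) it was smaller than that of *Neat1*. Many of these genes carry peaks in L1 elements, long interspersed repeats with many near copies. No repeat was named at the *Neat1* peaks, of which only the intergenic KO peak is of a class where the lists name L1. Among the 59 genes with peaks in both lists and none in L1, the median gap was 2853 bp, and for 33 (55.9%) it was smaller than for *Neat1*. The *Neat1* gap thus lay above the median of both groups, and within the quartiles of the 288 genes.

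**Figure D2:**
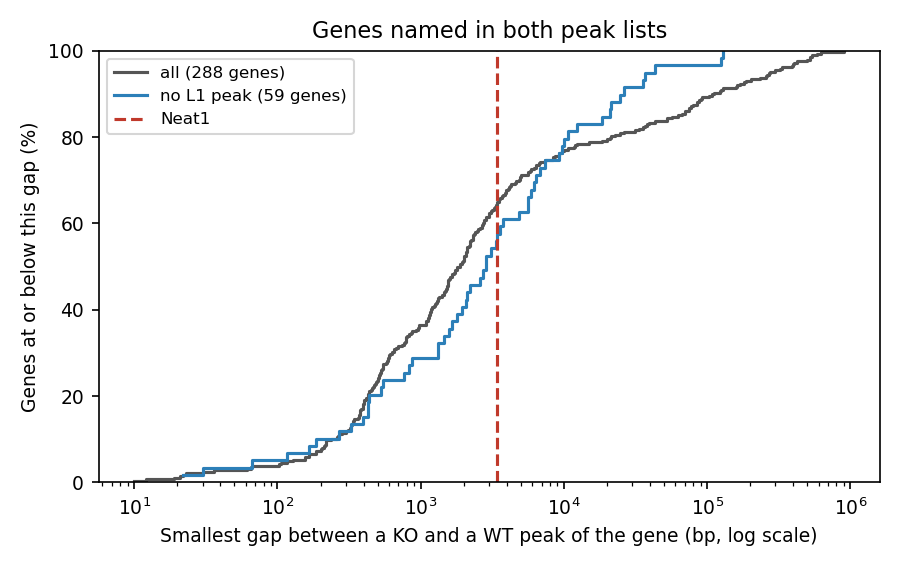
Share of the genes named in both lists (y, %) whose smallest gap between a KO and a WT peak is at or below the value on the x axis (bp, log scale), for all 288 genes and for the 59 without an L1 peak. The dashed line at 3396 bp is *Neat1*, and 64.2% of all 288 genes have a smaller gap.

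The sequence under the *Neat1* peaks was unique in the genome. Every stretch of 31 and of 100 bases under the 3 peaks occurred once on chromosomes 1 to 19 and X of GRCm38, counting both strands. Stretches of 31 bases were all single in only 502 of the 2763 peaks. By the median stretch of 100 bases, 36.4% of KO and 42.3% of WT peaks were single copy. A read of that length from these 3 peaks thus has 1 exact place in the genome. Repeat-masked bases made up 11.9% of the WT exon peak and 0% of the other two.

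The 3 peaks were narrower and richer in G and C than the median peak of their list. L1 was named at 925 of 1554 KO and 624 of 1209 WT peaks, and the list medians include these peaks. Medians without L1 peaks are not given here. The KO peak was among the narrowest, with 9.14% of KO peaks below its 168 bp, and the WT exon and 3′ UTR peaks had 35.4% and 46.7% of WT peaks below their 194 and 211 bp. KO peaks had a median width of 232 bp and WT peaks of 217 bp, with 157 bp as the smallest in either list. G and C made up 50.0% of the WT exon peak, 59.5% of the KO peak and 59.2% of the 3′ UTR peak, against list medians of 42.0% in KO and 44.8% in WT. G and C made up 47.3% of the *Neat1* gene, 53.6% of the stretch between *Neat1* and *Frmd8*, 49.4% of the bases from 5 to 6 Mb and 42.7% of chromosome 19. The exon, KO and 3′ UTR peaks held 2, 4 and 3 CpG dinucleotides. By the start sites of the lists, all were closer to a TSS than the median peak of their list, which was 53952 bp away in KO and 46206 bp in WT. None of the 3 was within 1 kb of one, against 123 of all 1554 KO and 81 of all 1209 WT peaks. By the start sites of GENCODE M21, the KO peak was within 1 kb of a TSS, that of *Frmd8os* at 300 bp.

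*Malat1* had no peak in either list. Its gene, chr19:5795690-5802672, ends 22035 bp short of *Neat1* on the far side from the TSS. The peaks nearest to it were those of *Neat1*, the WT exon peak at 30697 bp and the KO peak at 45452 bp. Of these neighbouring lncRNA genes, *Neat1* thus had peaks named for it and *Malat1* had none.

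*Neat1* lies in a window that is dense in peaks and genes. Chromosome 19 from 5 to 6 Mb held 25 peaks, 10 KO and 15 WT, the most of the 62 windows of 1 Mb of that chromosome, whose median was 1. Of 2641 such windows over chromosomes 1 to 19 and X, 3 had more peaks. Chromosome 19 had 64 KO peaks, of which 15.6% were in the window, and 82 WT peaks, of which 18.3% were. It also held 70 RefSeq genes, against a median of 15, and 31 windows had more genes. *Neat1* accounted for 3 of the 25 peaks, or 12.0%, a share that rests on the peaks by which the gene was chosen. From 4 to 7 Mb the share was 3 of 53 peaks, or 5.66%.

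Of the 1558 genes named in either whole list, 288 (18.5%) were in both, with 1008 named in KO and 838 in WT. The 25 peaks of the window were named for 17 genes, of which 5 were in both lists, 4 in KO only and 8 in WT only. Beside *Neat1*, those in both were *Ltbp3*, for a protein that stores latent TGF-β in the extracellular matrix, *Rin1*, for a Ras effector, *Sipa1*, for a GTPase-activating protein of Rap, and *Ccdc85b*, for a coiled-coil protein. Their gaps between KO and WT peaks were 2221 bp, 4835 bp, 397 bp and 3358 bp, so the 3396 bp of *Neat1* was the fourth of 5 in order. Each of these 4 had 1 KO and 1 WT peak. By the names in the lists, *Neat1* was the gene of the window with the most peaks, and it was chosen by these peaks. The KO-only genes were *Drap1*, *Pola2*, *Slc22a20* and *Snx32*, and *Pola2*, for a subunit of DNA polymerase α, had 2 peaks. The WT-only genes were *Ap5b1*, *Cdc42ep2*, *Efemp2*, *Map3k11*, *Ovol1*, *Pacs1*, *Slc29a2* and *Yif1a*, and *Cdc42ep2*, for an effector of the GTPase Cdc42, had 2. For the WT *Cdc42ep2* peak at chr19:5943410-5943620, the nearest start site was that of *Pola2* in RefSeq (9500 bp) and in GENCODE (353 bp). *Pola2* was thus KO-only, and had fewer peaks than *Neat1*, by the names in the lists alone.

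*Neat1* differed from these neighbours in kind, since the other 16 genes were all protein-coding. The other 22 peaks of the window were classed as intron in 9 cases, exon in 4, promoter-TSS in 4, 5′ UTR in 2, intergenic in 2 and 3′ UTR in 1, and none as non-coding. By the start sites of the lists, their centres were within 1 kb of a TSS in 6 of 22 cases, against 0 of the 3 *Neat1* peaks. Over both whole lists this held for 204 of 2763 peaks. GENCODE start sites were looked up for only some of the 22. Among these, the KO peak of *Ltbp3*, 1032 bp from its TSS in the lists, was 421 bp from a GENCODE start and 89 bp from a RefSeq start of *Ltbp3*. A WT peak named for *Cdc42ep2* was 353 bp from the GENCODE start of *Pola2*. The median width of the 22 peaks, 216 bp (160 to 658 bp), was close to the 168 to 211 bp of the *Neat1* peaks. Their G and C content had a median of 61.2% (41.2 to 75.0%), above the 3 *Neat1* peaks, and their CpG count a median of 9 (1 to 62), against 2 to 4. They shared with the *Neat1* peaks that all 22 were single copy by the median stretch of 100 bases. Single-copy sequence was thus common to the window. No L1 element was named at any of them, but the lists name L1 only for intergenic and intron peaks. Of the 22, only the 9 intron and 2 intergenic peaks could have had one named. The KO peak of *Ccdc85b*, in a 3′ UTR, was 100% repeat-masked with no repeat named. With 3 peaks against 22, chosen as they were, no test was made of these differences.

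**Figure D3:**
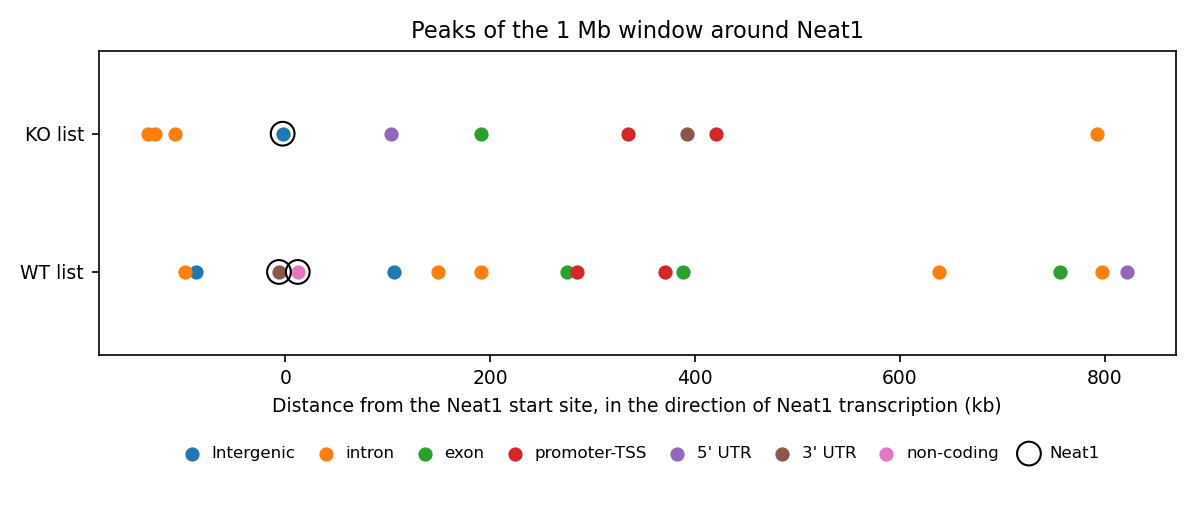
The 25 peaks of chromosome 19 from 5 to 6 Mb by list (y) and by distance from the *Neat1* start site in the direction of *Neat1* transcription (x, kb), coloured by the category in the lists, with the *Neat1* peaks circled. The 3 *Neat1* peaks lie 80926 and 91319 bp from the next peaks on either side and include the only non-coding one.

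**Figure D4:**
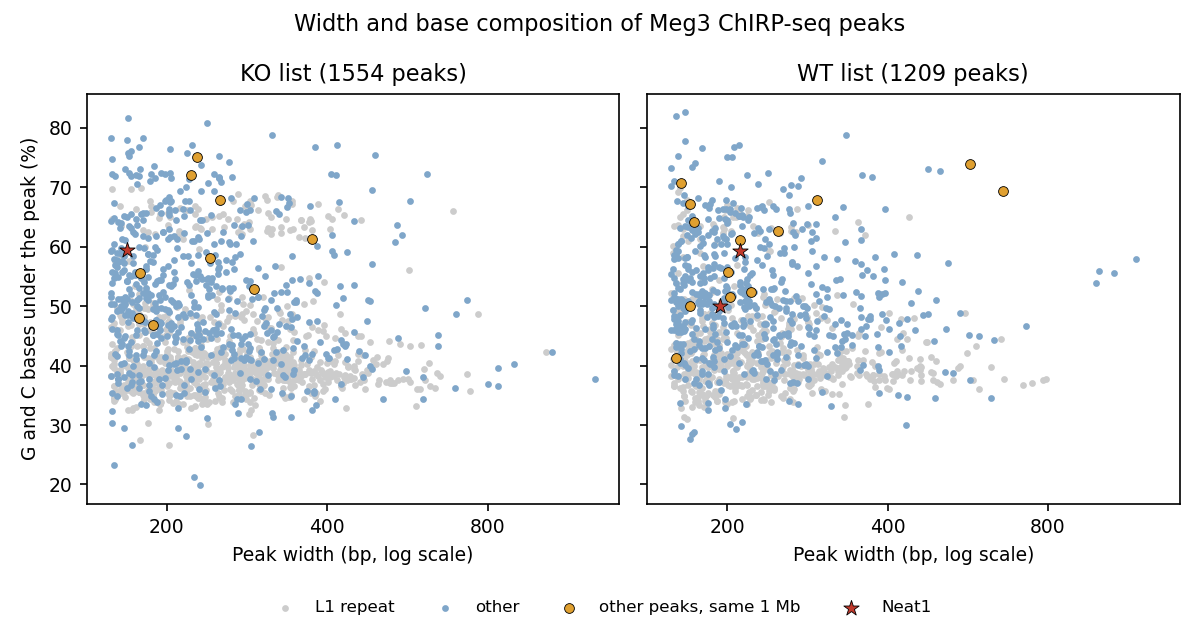
Width (x, bp, log scale) against G and C content (y, %) of every peak of the KO list (left) and of the WT list (right), with L1 peaks in grey, other peaks in blue, the other peaks of chromosome 19 from 5 to 6 Mb in orange and *Neat1* peaks as red stars. The KO *Neat1* peak, 168 bp wide, lies at the narrow edge of its list, and the WT exon peak has 50.0% G and C against a WT median of 44.8%.

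Few peaks of either list were classed as non-coding, the category for exons of non-coding transcripts. The share of the genome in such exons was not computed. The category non-coding was given to 2 KO peaks (0.129%), of *Brd2* and *Pitpnm1*, and to 3 WT peaks (0.248%), of *Neat1*, *2900097C17Rik* and *Sart3*. Of these 5 genes, *Neat1* and *2900097C17Rik* are the only ones of the ncRNA type, and the others are protein-coding genes with a non-coding transcript. Genes of the ncRNA type were not rare as nearest genes. They numbered 264 of the 1558 genes named in either list and 62 of the 288 named in both, and gave their names to 18.6% of KO and 19.7% of WT peaks. The share of such genes among all annotated genes was not computed.

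Of 19 genes for paraspeckle proteins, *Cirbp*, for a cold-inducible RNA-binding protein, was the only one named for a peak. It was a KO peak at chr10:80168014-80168334, in a CpG island within an intron, 335 bp downstream of the TSS. The core components *Nono*, *Sfpq*, *Pspc1* and *Rbm14* had none in either list. Of 21 nuclear or abundant lncRNAs other than *Neat1*, among them *Malat1*, *Meg3*, *Xist*, *Kcnq1ot1*, *Airn*, *H19* and *Firre*, only the imprinted *Peg13* was named, for a WT peak at chr15:72816206-72816509 with its centre at -6033 bp from the TSS (upstream), in an intron of another gene. None of the listed genes was in both lists. For comparison, 5.81% of the 26089 RefSeq genes with a curated transcript, or 1516, were the nearest gene of a peak in either list. Genes named in both lists were fewer, at 288, so the lack of a listed gene in both is not read as a trait of these genes.

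*Neat1* was 1 of 33 genes with 1 KO and 2 WT peaks. The 5 of these with the smallest gaps between KO and WT peaks were *Ccdc71l* (10 bp), *Fmn2* (12 bp), *Srgap1* (23 bp), *Lyplal1* (219 bp) and *C1d* (329 bp). These genes equalled *Neat1* in their counts alone, since all 15 of their peaks were in L1 elements and none was single copy. Of the 99 peaks of the 33 genes, 75 were in L1. Only 6 of the 33 genes had no L1 peak, and they are named here after their values were seen. Beside *Neat1* they were *Cntnap3* with a gap of 1567 bp, *Hdac7* with 1807 bp, *Hdhd3* with 3593 bp, *Myh9* with 21496 bp and *Slc38a4* with 128259 bp. All 3 peaks were single copy for *Neat1*, *Hdac7*, for a histone deacetylase, *Hdhd3*, *Myh9*, for the heavy chain of non-muscle myosin IIA, and *Slc38a4*, for an amino acid transporter, whereas only 1 of 3 was for *Cntnap3*. *Neat1* was the only ncRNA gene of the 6.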

How the data were processed

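The *Meg3* ChIRP-seq peak lists of WT and KO MEFs, 1 per genotype, were used as deposited. The authors aligned reads to GRCm38 with BWA-MEM, merged 4 libraries per genotype (2 replicates of each of 2 probe pools), called peaks with MACS2 against input at q 0.05, removed blacklisted regions and annotated peaks with HOMER; tool versions are not given in the sources used here. The deposited score is 1 for every peak, and positions and distances are in bp, so neither strength nor depth is known. With 1 list per genotype no test between genotypes was possible.

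Peaks were taken by the *Neat1* name in the deposited lists. Gaps are the bases between 2 peaks. A peak was placed in L1 where the lists name an L1 repeat at it, which they do only for intergenic and intron peaks. RefSeq GRCm38.p6 and GENCODE M21 supplied gene models. For 2557 of the 2743 peaks whose transcript is in RefSeq (93.2%), the distance to its start was within 2 bp of that in the lists. Stretches of 31 and 100 bases were counted over the genome, and matches were searched on both strands against 16 probes and 11 annotated *Meg3* transcripts. The text names *Neat1*, *Malat1*, the nearest genes of peaks at 5 to 6 Mb, genes with a peak from lists of 19 paraspeckle proteins (a further one is not reported here) and 21 lncRNAs (20 of them in RefSeq by symbol), and the 5 genes most like *Neat1* in KO and WT peak counts, ties broken by the smallest gap; genes named beyond these were chosen after their values were seen. The members and lists were chosen with earlier results of these data known. Alternatives were the overlap with the gene body, a limit of 10 kb to the TSS, merging peaks within 1 kb, a window of 4 to 7 Mb, distances between centres, leaving out L1 peaks, stretches of 31 bases, and, added after seeing the data, nearest start sites of GENCODE and RefSeq. Tested on simulated data, the counting recovered 100 of 100 planted copies at each length, and 0 of 200 gaps differed from a direct count. Computations used numba 0.67.0, pandas 2.3.3, numpy 2.4.6 and scipy 1.17.1 under Python 3.11.15, with matplotlib 3.10.9 for figures.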

Additional observations from a re-analysis of the deposited data

How the results depend on the processing

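The number of *Neat1* peaks depended on how a peak is given to a gene. Counted by overlap with the gene body, *Neat1* had 0 KO peaks and 1 WT peak, and by the nearest GENCODE start site, an alternative chosen after seeing the data, it also had 0 KO and 1 WT peaks. Within 10 kb of the TSS, 1 WT peak was left, and the KO count was the same. Nearest RefSeq start sites (also chosen after seeing the data) and merging peaks within 1 kb left 1 KO and 2 WT peaks. Genes named in both lists fell from 288 to 42 within 10 kb of the TSS and to 82 without L1 peaks. The *Neat1* share of peaks was 5.66% in the wider window of 4 to 7 Mb, against 12.0% from 5 to 6 Mb. The same 3 *Neat1* peaks were counted among 53 peaks in place of 25, so only the number of other peaks changed. The gap was 3586 bp between centres, against 3396 bp between the peaks. The median number of copies under the *Neat1* peaks was 1 with stretches of 31 bases, as with 100. No paired analysis was possible because each genotype has 1 pooled list. The lists carry no read counts, so it cannot be told whether weaker binding at *Neat1* or *Malat1* fell below the threshold of the peak caller, and leaving out a replicate could not be run.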
